A study of Mus musculus with 9 samples.

Results

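The C2H2 zinc finger genes are the largest class of transcription factors in the mouse genome, and their RNA was followed here in skeletal stem and stromal cells of bone marrow and periosteum. The members were all protein-coding genes whose transcription factor family in the deposited table contains C2H2, with Egr1 left out. This gave 88 of the 8329 genes in the table, of which 3477 are protein-coding, while 143 other genes in it carried a transcription factor family. A gene missing from the table has no value here, which does not show that it is silent. Group differences were tested for the 50 members that reached an FPKM of 1 or more (fragments scaled by gene length and library total) in at least 3 of the 9 libraries. RNA sequencing was done on BM-MSCs, the mesenchymal stem cells of the marrow, and on P-SSCs, the skeletal stem cells of the periosteum, the thin tissue that covers the outside of a bone. All cells came from WT adult mice of the strain C57BL/6J and were sorted directly after digestion of the tissue. BM-MSCs and steady-state P-SSCs were taken at Day 0, and graft P-SSCs were taken from femurs at Day 3 after a whole femur had been placed under the skin of a recipient mouse. There were 3 libraries in each group, each from distinct mice. Replicate 2 of the BM-MSCs and replicate 2 of the P-SSCs carry sample names that join 2 preparations, and the methods state that RNA of 2 mice was combined where needed. The labels name no reporter for these samples, so donor and recipient cells cannot be told apart in graft P-SSCs.

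A C2H2 zinc finger is a short fold in which a pair of cysteines and a pair of histidines hold a zinc ion, and several fingers in a row read several adjoining DNA triplets. Some families with few fingers, among them KLF, Snail, GLI and EGR factors, are conserved regulators of development and of the response to growth signals. The many numbered genes (Zfp, Zkscan and similar symbols) mostly encode long finger arrays, often joined to a KRAB domain, which recruits the co-repressor Trim28 and heterochromatin proteins, and many of these bind transposable elements. In skeletal tissue, GLI factors carry out the Hedgehog response, Snail factors act in migrating mesenchymal cells, and Zfp423 marks precursors that can become adipocytes.

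The coding sequence of 1 finger is shown for 5 members on which the results below turn, to show what the members share at the level of sequence. Capitals mark the codons of the zinc-binding cysteines and histidines, which were found by a script as C-N(2-4)-C-N(12)-H-N(3-5)-H in the translated transcript, and all other bases are in lower case. The sequences are from the GENCODE transcripts of GRCm38 and lie within coding exons.
Snai1 finger 1: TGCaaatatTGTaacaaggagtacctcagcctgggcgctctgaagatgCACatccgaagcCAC
Klf7 finger 1: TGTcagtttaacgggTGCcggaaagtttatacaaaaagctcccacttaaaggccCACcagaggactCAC
Prdm15 finger 2: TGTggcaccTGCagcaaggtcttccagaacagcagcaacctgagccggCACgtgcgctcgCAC
Zfp423 finger 1: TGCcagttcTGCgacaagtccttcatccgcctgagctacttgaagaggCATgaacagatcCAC
Zfp771 finger 1: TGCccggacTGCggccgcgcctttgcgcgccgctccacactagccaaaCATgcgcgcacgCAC
They lie at chr2:167539054-167539116 on the plus strand for Snai1, chr1:64078711-64078779 on the minus strand for Klf7, chr16:97816865-97816927 on the minus strand for Prdm15, chr8:87783211-87783273 on the minus strand for Zfp423 and chr7:127253856-127253918 on the plus strand for Zfp771. The pattern found at least 1 finger in 84 of the 88 members and none in 4. The number of fingers found was 3 in Snai1 and Klf7, 8 in Zfp771, 16 in Prdm15 and 27 in Zfp423, and fingers that depart from the pattern were not counted.

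The library totals by which the authors had divided the fragments were recovered from the steps in the values and ranged from 16890241 to 21315438 fragments. The value of 1 fragment therefore sets the depth for each gene, and the fragments are given for some of the lowest values. The group labels were checked against marker lists, of which only a part is in the table: Postn, a gene of the periosteum, had 90.6 to 125 FPKM in BM-MSCs, 391 to 476 FPKM in P-SSCs and 782 to 879 FPKM in graft P-SSCs, while none of the listed chondrocyte, osteoblast, endothelial, muscle or megakaryocyte markers is in it. Blood markers were present in the marrow sort. The erythroid gene Hba-a2, 1 of 10 erythroid markers in the table, had 618 to 2200.5 FPKM in BM-MSCs, 2.13 to 20.2 in P-SSCs and 0.531 to 3.67 in graft P-SSCs. The 5 of 11 myeloid markers in the table summed to 441 to 610, 14.5 to 72.3 and 33.4 to 93.5 FPKM in the same order. Lyz2 made up most of it except in BM-MSC replicate 1, where Mpo had 292 FPKM and Lyz2 had 143 FPKM, while Mpo was at 0 in the other marrow libraries. The 2 of 10 lymphoid markers in the table summed to 12.5 to 38.3, 5.71 to 24.6 and 0.271 to 0.623 FPKM. The macrophage gene Csf1r did not follow the myeloid sum, for it had 0 to 2.68 FPKM in BM-MSCs, 0.248 to 0.835 in P-SSCs and 5.57 to 6.31 in grafts, and Adgre1 had 3.17, 2.72 and 0.0342 FPKM in BM-MSCs, 0 in all P-SSC libraries and 0.907 to 2.75 FPKM in grafts. Ptprc, which encodes the CD45 protein that the sort was meant to exclude, had 0.326 to 1.35 FPKM in BM-MSCs, 0 in all 3 P-SSC libraries and 0.113 to 0.311 FPKM in grafts. The part of these blood cells in the differences below was not tested.

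P-SSC replicate 3 stood apart from the other P-SSC libraries. Of the 50 members tested, 10 (20.0%) were more than 1 unit of log2(FPKM + 1) above both other P-SSC libraries in it, as were 18.9% of the 1948 genes tested, and 1 member was more than 1 unit below both. In 7 of these 10 members (14% of those tested) all graft libraries were also more than 1 unit above P-SSC replicates 1 and 2, as were 219 genes (11.2%) of all tested, so this was no property of the C2H2 genes alone. For Postn this library had 391 FPKM, close to the 451 and 476 FPKM of the other P-SSC libraries. The main calls and summary values are given without it as well.

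Of the 88 members, 72 were above 0 in at least 1 library, 45 in all 9 libraries, and 16 were at 0 throughout. The number of members above 0 was 63, 59 and 57 in BM-MSCs, 58, 52 and 59 in P-SSCs and 66, 67 and 69 in graft P-SSCs. The grafts thus had more of these genes above 0 than any other library, by a mean of 11 genes over P-SSCs and 7.67 over BM-MSCs, both with an exact two-sided permutation p of 0.1, the smallest that 3 libraries against 3 allow. The whole table moved in the same way. Between 2771 and 2829 of its genes were above 0 in grafts and 2231 to 2466 in P-SSCs, a ratio of the means of 1.18, against 1.2 for the members. For grafts over BM-MSCs this ratio was 1.17 for all genes and 1.13 for the members. At the threshold of 1 FPKM the groups overlapped. There were 45, 40 and 37 members in BM-MSCs, 40, 33 and 46 in P-SSCs and 39, 39 and 41 in graft P-SSCs, with a mean difference of 0 between grafts and P-SSCs (exact two-sided permutation p = 1). This mean depended on single libraries, as it was 3.17 without P-SSC replicate 3 and −3.33 without replicate 2. Together the members held 0.0429 to 0.0734% of all fragments, with the highest share in P-SSC replicate 3.

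**Figure D1:**
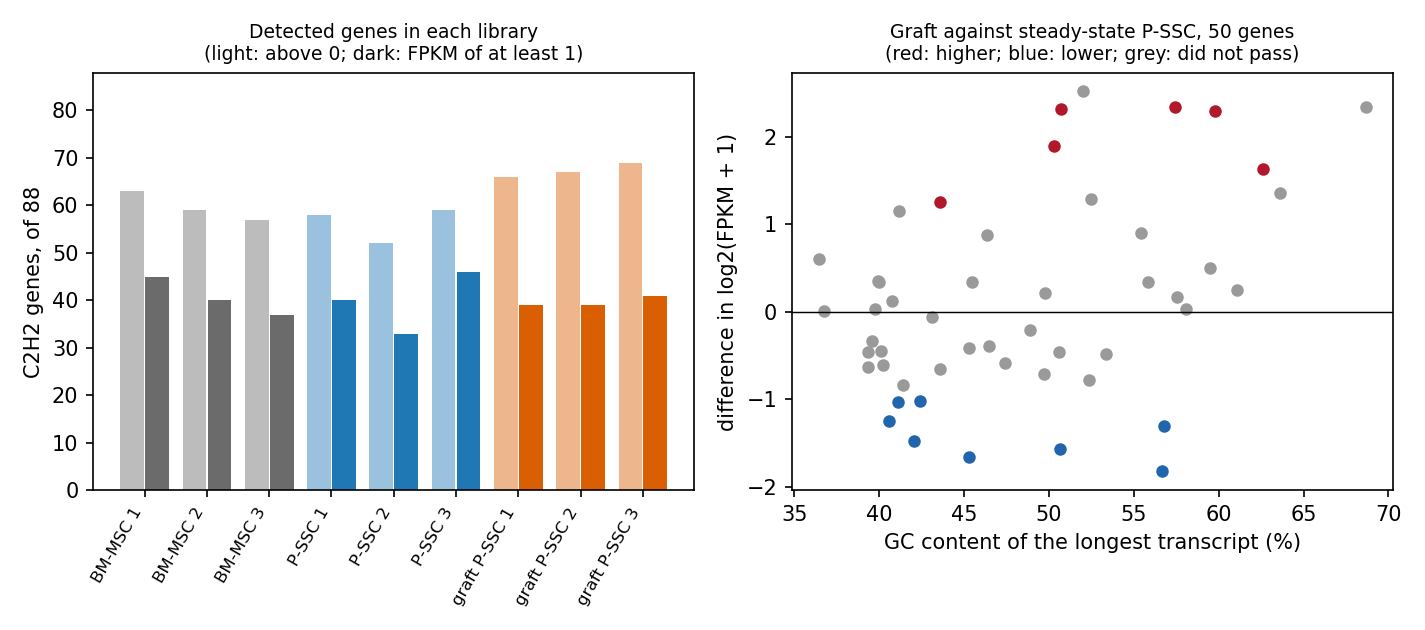
Left, number of the 88 C2H2 genes above 0 (light bars) and at 1 FPKM or more (dark bars) in each of the 9 libraries; the 3 graft libraries have the most genes above 0 (66 to 69) and 39 to 41 at 1 FPKM or more. Right, GC content of the longest transcript in percent (x) against the difference in log2(FPKM + 1) between graft and steady-state P-SSCs (y) for the 50 genes tested, coloured by the test, in which the 6 genes that were higher lie between 43.6 and 62.6% GC.

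As a class the members were expressed at low levels. The median over the 50 tested members of the mean FPKM was 2.89, against 9.04 over all 1948 genes tested, and 8 members had a mean of at least 10 FPKM. By the mean over all 9 libraries Zfp110 was the highest, with 27.5 ± 8.82 FPKM (SD, n = 3) in BM-MSCs, 24.3 ± 2.65 in P-SSCs and 18.2 ± 0.416 in graft P-SSCs, and it did not pass the test in any comparison, although it was called lower in grafts than in BM-MSCs in 2 of 19 other fits and than in P-SSCs in 1. Zkscan17, the next, lay at 19.6 ± 3.55, 19.6 ± 8.38 and 19.1 ± 1.10 FPKM, with a difference between −0.06 and 0.04 in each comparison. The others with a mean of at least 10 FPKM were Zfp423, Zfp771, Snai1, Zfp672, Zfp513 and Ctcf, which are described below. The length by which fragments were scaled was the mean transcript length for most genes. It was 1618 bases for Zfp110, whose listed gene length is 4116, and 1621 of 1621 for Snai1. Levels of different genes can therefore be set beside each other only roughly. The order also depended on the group. The highest mean was that of Zfp110 in BM-MSCs, of Zfp423 (36.9 FPKM) in P-SSCs and of Zfp771 (31.5 FPKM) in grafts, where Snai1 (27.0 FPKM) came next.

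The first comparison asked how periosteal cells differ from marrow cells at steady state, and Zfp423 and Snai1 were among the 5 members that differed. Higher in P-SSCs were Zfp423 and Prdm15, and lower were Snai1, Zfp1 and Zfp513. These 5 of 50 members (10%) had an adjusted p under 0.05 in limma's moderated test, against 24.2% of all genes tested. By direction these were 2 higher, against 9.80% of all genes, and 3 lower, against 14.4%. At an unadjusted p under 0.05 there were 11 members (22%, against 33.9% of all genes). Libraries of the 2 groups lay apart for 7 members (14%, against 32.1%), of which 4 were higher (against 12.9%) and 3 lower (against 19.2%). The number of calls in each direction depended on the scaling, with 3 higher and 2 lower under median-of-ratios scaling (10.5% and 12.8% of all genes) and 3 higher and 1 lower under quantile normalization (11.6% and 12.7%). Genes entered or left the calls, but none changed direction. The median difference of the members was 0.01 on the log2(FPKM + 1) scale, and that of all genes tested was −0.06.

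Zfp423, a many-fingered partner of EBF and SMAD proteins, had 7.98, 1.31 and 15.5 FPKM in the BM-MSC libraries and 35.8, 27.1 and 47.8 FPKM in the P-SSC libraries. The groups did not overlap, and the 3 marrow libraries spread widely. The means of 8.25 ± 7.09 and 36.9 ± 10.4 FPKM differ 4.47-fold, with a difference of 2.40 ± 0.60 (SE) in log2(FPKM + 1) and an adjusted p of 0.0155 from limma. Prdm15, a PRDM-family regulator known from pluripotent stem cells, had 2.04, 0.833 and 1.07 FPKM in BM-MSCs and 4.78, 5.99 and 5.86 in P-SSCs. Here every P-SSC library was more than double the highest marrow library, with a difference of 1.53 ± 0.29 and an adjusted p of 0.00336 (limma).

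Snai1, the repressor of E-cadherin that acts in epithelial-mesenchymal transition, went the other way. It had 11.3, 12.7 and 14.3 FPKM in BM-MSCs and 4.06, 5.97 and 4.06 in P-SSCs, with little spread in either group. P-SSCs were 2.72-fold lower, a difference of −1.29 ± 0.25 with an adjusted p of 0.00401 (limma). Zfp1 had 13.5, 14.5 and 8.85 FPKM in BM-MSCs and 3.52, 7.34 and 2.64 in P-SSCs, with a difference of −1.34 ± 0.38 and an adjusted p of 0.0278. Zfp513 had 19.0, 12.7 and 19.5 FPKM in BM-MSCs against 6.78, 8.73 and 10 in P-SSCs, with a difference of −0.92 ± 0.26 and an adjusted p of 0.0291. Neither of these 2 genes overlapped between the groups, and their calls were lost in 7 and 9 of 19 other fits. When P-SSC replicate 3 was left out, all 5 members still passed and Zfp7, Zfp54, Zfp444 and Zfp763 were also lower in P-SSCs. These 9 members (18%) stand beside 30.4% of all genes called in that fit, and the members whose libraries lay apart then numbered 4 higher and 10 lower (against 16.9% and 29.9%). Fitting the 6 libraries of these groups alone left 2 members, and Zfp423 was not among them.

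Klf7, a KLF factor known from neuronal outgrowth and from the block of adipocyte formation, and Mecom, a PRDM-family gene of blood stem cells also called Evi1, did not overlap between the groups but did not pass the test. Klf7 had 4.27, 2.90 and 7.28 FPKM in BM-MSCs and 9.90, 9.90 and 9.19 in P-SSCs (difference 0.94 ± 0.32, adjusted p = 0.0628, limma). Mecom had 0, 2 and 0 fragments in BM-MSCs and 65, 3 and 62 in P-SSCs, so that P-SSC replicate 2 lay close to the marrow libraries (adjusted p = 0.0891). Klf7 was called in 5 of 19 other fits and Mecom in 4 of 18, among them limma voom for both.

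The second comparison asked what bone transplantation changed in periosteal cells within 3 days. Snai1 and Glis3 rose, Glis1 was detected in grafts alone, and Zfp423, Prdm15 and Klf7 fell. This comparison shares its 3 steady-state P-SSC libraries with the one before, with the opposite sign, so that a gene high in them by chance would be called in opposite directions in both. In all, 14 of 50 members (28%) passed the test, against 34.1% of all genes. Of these, 6 were higher (12%, against 22.6% of all genes) and 8 lower (16%, against 11.5%). The median difference was 0.02 for the members and 0.26 for all genes tested. The scaling of the libraries mattered here: median-of-ratios scaling brought the median of all genes to 0.02 and gave 4 members higher and 10 lower (16% and 15.5% of all genes), while quantile normalization brought it to −0.08 and gave 4 higher and 14 lower (16% and 18.2% of all genes). Graft and steady-state libraries lay apart for 21 members (42%, against 50.6% of all genes), with 7 higher (14%, against 31.5%) and 14 lower (28%, against 19.0%). Without P-SSC replicate 3 they lay apart for 18 higher and 16 lower members, against 46.4% and 24.8% of all genes. At an unadjusted p under 0.05 there were 18 members (36%, against 43.5%).

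Snai1 had 22.9, 25.9 and 32.3 FPKM in graft P-SSCs, each at least 3 times the value of any steady-state P-SSC library. Its mean of 27.0 ± 4.80 FPKM was 5.75-fold that of steady-state P-SSCs, with a difference of 2.3 ± 0.25 and an adjusted p of 0.000146 (limma), and it held in each of the 19 other fits made. Snai1 was thereby the one member that differed in all 3 comparisons, lowest in P-SSCs, intermediate in BM-MSCs and highest in grafts.

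The GLI-like factors Glis1 and Glis3 carry a finger array related to that of the GLI proteins. Glis1 was at 0 in all 6 BM-MSC and P-SSC libraries and had 69, 52 and 39 fragments in the grafts. These are 2.96, 1.85 and 1.65 FPKM, at least 17.8-fold above the level that 3 fragments in each P-SSC library would give. Glis1 passed the expression filter only through the 3 graft libraries in which it was high, so its difference is given as a description, although it is counted among the members called. Glis3 had 0.920, 0.250 and 0.863 FPKM in P-SSCs and 8.10, 5.20 and 3.13 in grafts, an 8.08-fold rise of the mean with a difference of 1.90 ± 0.40 and an adjusted p of 0.00522. Gli2, the main activator of Hedgehog target genes, was tested too and showed no such separation, with 2.78, 0.108 and 3.59 FPKM in P-SSCs and 3.18, 1.5 and 1.60 in grafts (difference 0.17 ± 0.56, adjusted p = 0.844). Of the 11 GLI, GLIS and ZIC genes listed, 5 were in the table and 3 were tested. Of these 3, 2 were called higher, with Glis1 as one of them, beside 22.6% of all genes. Zic4 and Zic5 had at most 11 and 3 fragments in any library, all in grafts.

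**Figure D2:**
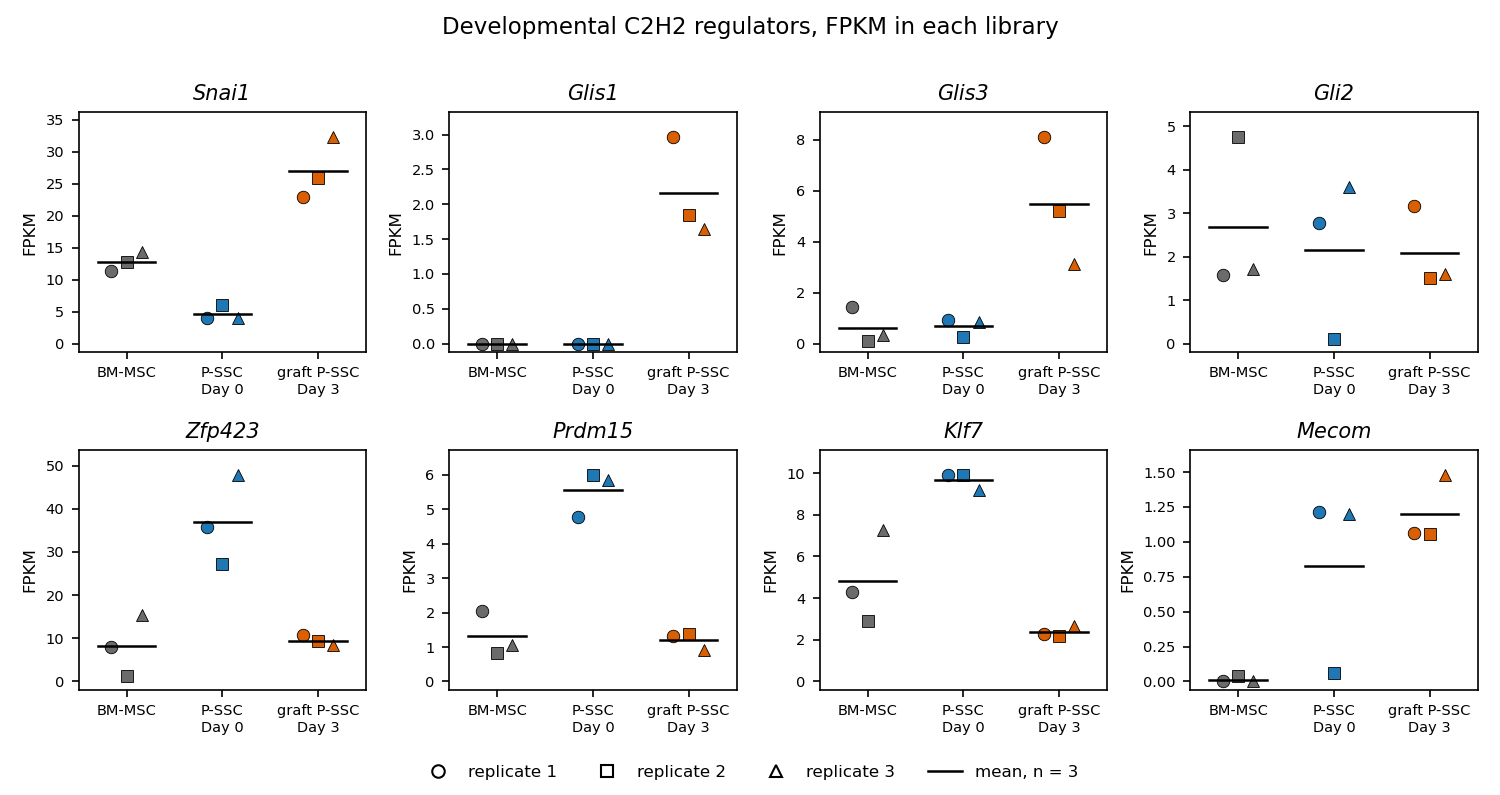
FPKM (y) of 8 developmental C2H2 regulators in the 3 libraries of each group (x), with a symbol for each replicate and a line at the mean (n = 3). Snai1, Glis1 and Glis3 are highest in the 3 graft libraries, whereas Zfp423, Prdm15 and Klf7 are highest in the 3 steady-state P-SSC libraries.

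The members Zfp423, Prdm15 and Klf7 fell in grafts, and their graft levels are set beside those of marrow cells here. Zfp423 had 10.7, 9.29 and 8.36 FPKM in grafts against 35.8, 27.1 and 47.8 in steady-state P-SSCs (difference −1.83 ± 0.60, adjusted p = 0.0403, limma). Its graft mean of 9.46 ± 1.19 FPKM lay 1.15-fold above the marrow mean, and that difference did not pass (adjusted p = 0.457). The marrow libraries, at 7.98, 1.31 and 15.5 FPKM, lay on both sides of the graft libraries, so the direction of this fold depended on single libraries. The call for Zfp423 was lost in 10 of the 19 other fits, among them the fit without P-SSC replicate 3, where the difference was −1.63 with an adjusted p of 0.0686.

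Prdm15 had 1.32, 1.36 and 0.916 FPKM in grafts, 4.62-fold below P-SSCs in the mean, with a difference of −1.57 ± 0.29 and an adjusted p of 0.00254. Against marrow its difference was −0.04 ± 0.29. Klf7 had 2.29, 2.19 and 2.67 FPKM in grafts, 4.05-fold below P-SSCs, with a difference of −1.66 ± 0.32 and an adjusted p of 0.00369. All graft libraries of Klf7 also lay below all marrow libraries, 2.02-fold in the mean (difference −0.71, adjusted p = 0.105), and under median-of-ratios scaling that difference was called, as it was without BM-MSC replicate 2. The 3 P-SSC libraries of Klf7 were alike and so were the 3 graft libraries, and the calls for Prdm15 and Klf7 held in each of the other 19 fits.

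The other genes called in this comparison were numbered zinc finger genes, a group of 68 members with 39 tested, and Gtf3a and Prdm4, which are described with P-SSC replicate 3. Among the numbered genes 6 fell besides the 1 that rose, Zfp9, and Zfp423 is one of the 6. Zfp9 had 5.25, 3.37 and 3.77 FPKM in P-SSCs and 10.4, 11.8 and 11.1 in grafts, with a difference of 1.26 ± 0.31 and an adjusted p of 0.0123. It was 2.79-fold above the BM-MSCs as well (adjusted p = 0.00825). The first call was lost in 3 of 19 other fits, namely quantile normalization and those without graft replicate 2 or 3, and the second in 1.

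Zfp169, with 17 fingers, had 2.24, 1.91 and 1.68 FPKM in P-SSCs (64 to 89 fragments) and 0.281, 0.0467 and 0.388 in grafts (2 to 14 fragments), with a difference of −1.25 ± 0.30 and an adjusted p of 0.0104. Zfp2, with 13 fingers, went from 2.54, 4.08 and 3.07 FPKM to 0.672, 0.533 and 0.331 (difference −1.48 ± 0.40, adjusted p = 0.0189). Zfp420, with 19 fingers, went from 1.08, 2.76 and 2.37 FPKM to 0.327, 0.209 and 0.942 (difference −1.03 ± 0.32, adjusted p = 0.0329). None of these 3 overlapped between the groups, but the call was lost in 1 of 19 other fits for Zfp169 (without graft replicate 2), in 4 for Zfp2 (without P-SSC replicate 2 or any 1 graft library) and in 6 for Zfp420. The BM-MSC means of the same genes lay between those of grafts and P-SSCs. Single BM-MSC values scattered for Zfp2, with 1.34, 0.287 and 3.20 FPKM, of which the lowest was below every graft library. They scattered less for Zfp420, with 1.71, 1.85 and 0.927 FPKM.

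2610008E11Rik, with 14 fingers, was highest in marrow and lowest in grafts, with 9.27, 4.32 and 8.12 FPKM in BM-MSCs, 5.10, 4.52 and 2.96 in P-SSCs and 1.48, 1.31 and 1.71 in grafts. Its fall from P-SSCs to grafts (difference −1.04 ± 0.34, adjusted p = 0.0402) was lost in 8 of 19 other fits, and that from BM-MSCs to grafts (−1.67 ± 0.34, adjusted p = 0.00389) in none. Zfp707 had 5.19, 9.20 and 11.2 FPKM in P-SSCs and 2.48, 2.75 and 2.85 in grafts (difference −1.31 ± 0.44, adjusted p = 0.0419). The call was lost in 8 of 19 other fits. Without P-SSC replicate 3 the adjusted p of Zfp707 was 0.0733 and that of Zfp420 was 0.0521.

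**Figure D3:**
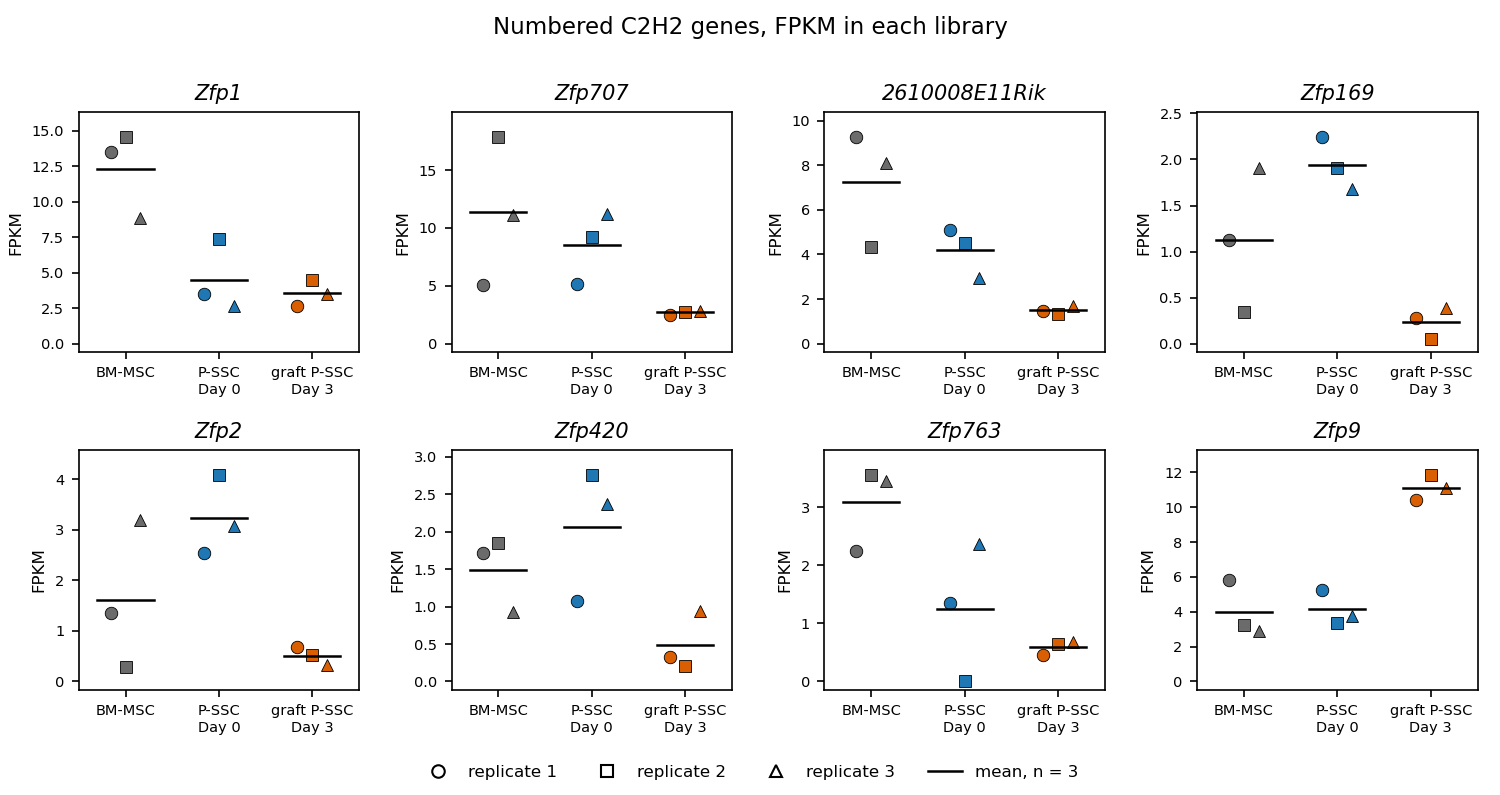
FPKM (y) of 8 numbered C2H2 genes in the 3 libraries of each group (x), with a symbol for each replicate and a line at the mean (n = 3). In 7 of them the graft mean is the lowest of the 3 groups, and in Zfp9 it is the highest (11.1 FPKM).

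The third comparison set graft P-SSCs against BM-MSCs. Here 17 of 50 members (34%) passed, against 41.9% of all genes tested. Of these, 11 were higher (22%, against 25.7%) and 6 lower (12%, against 16.2%), and the median difference was −0.11 for the members and 0.28 for all genes. Median-of-ratios scaling gave 10 higher and 9 lower (19.9% and 18.7% of all genes) with a median of all genes of 0.08, and quantile normalization 9 higher and 13 lower (19.9% and 20.8%) with a median of −0.01. Graft and marrow libraries lay apart for 27 members (54%, against 64.5% of all genes), with 14 higher (28%, against 40.5%) and 13 lower (26%, against 24.0%). At an unadjusted p under 0.05 there were 21 members (42%, against 50.8%). Every pair of the 3 comparisons shares the libraries of 1 group, so they are not independent of each other.

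Higher in grafts than in marrow were Snai1 (difference 1.02 ± 0.25, adjusted p = 0.01, limma), Glis1, which entered the test only through its graft values, Glis3 (2.01 ± 0.40, adjusted p = 0.00333), Zfp9, Mecom and 6 of the genes described with P-SSC replicate 3. The call for Snai1 was lost under median-of-ratios scaling, under quantile normalization and without graft replicate 3. Mecom had 51, 61 and 72 fragments in the grafts, or 1.06, 1.06 and 1.48 FPKM, against 0, 2 and 0 fragments in BM-MSCs, with a difference of 1.11 ± 0.29 and an adjusted p of 0.0138.

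Lower in grafts than in marrow were 2610008E11Rik, Zfp707, Zfp1, Zfp763, Zfp764 and Zfp672, all of them numbered genes. Zfp1 had 2.63, 4.48 and 3.48 FPKM in grafts, against at least 8.85 FPKM in each marrow library, and the call held in every other fit (difference −1.55 ± 0.38, adjusted p = 0.00975). Zfp672 had 23.7, 16.2 and 13.9 FPKM in BM-MSCs and 8.55, 7.87 and 8.0 in grafts (difference −1.02 ± 0.32, adjusted p = 0.0299), with the P-SSC mean between them. Zfp763 went from 2.25, 3.55 and 3.44 FPKM in BM-MSCs to 0.459, 0.642 and 0.677 in grafts (adjusted p = 0.0269), and Zfp764 from 6.41, 13.2 and 8.06 to 2.74, 3.09 and 3.04 (adjusted p = 0.0269). The graft libraries lay below all marrow libraries for each of these 6 genes. Of 19 other fits, the call was lost in 8 for Zfp763, 6 for Zfp764, 5 for Zfp672 and 3 for Zfp707, most of them fits without 1 marrow or graft library. For Zfp763 the adjusted p of limma voom on recovered fragments was 0.190. In these sorted bulk samples, fewer cells that use a gene and less RNA of it in each cell cannot be told apart.

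**Figure D4:**
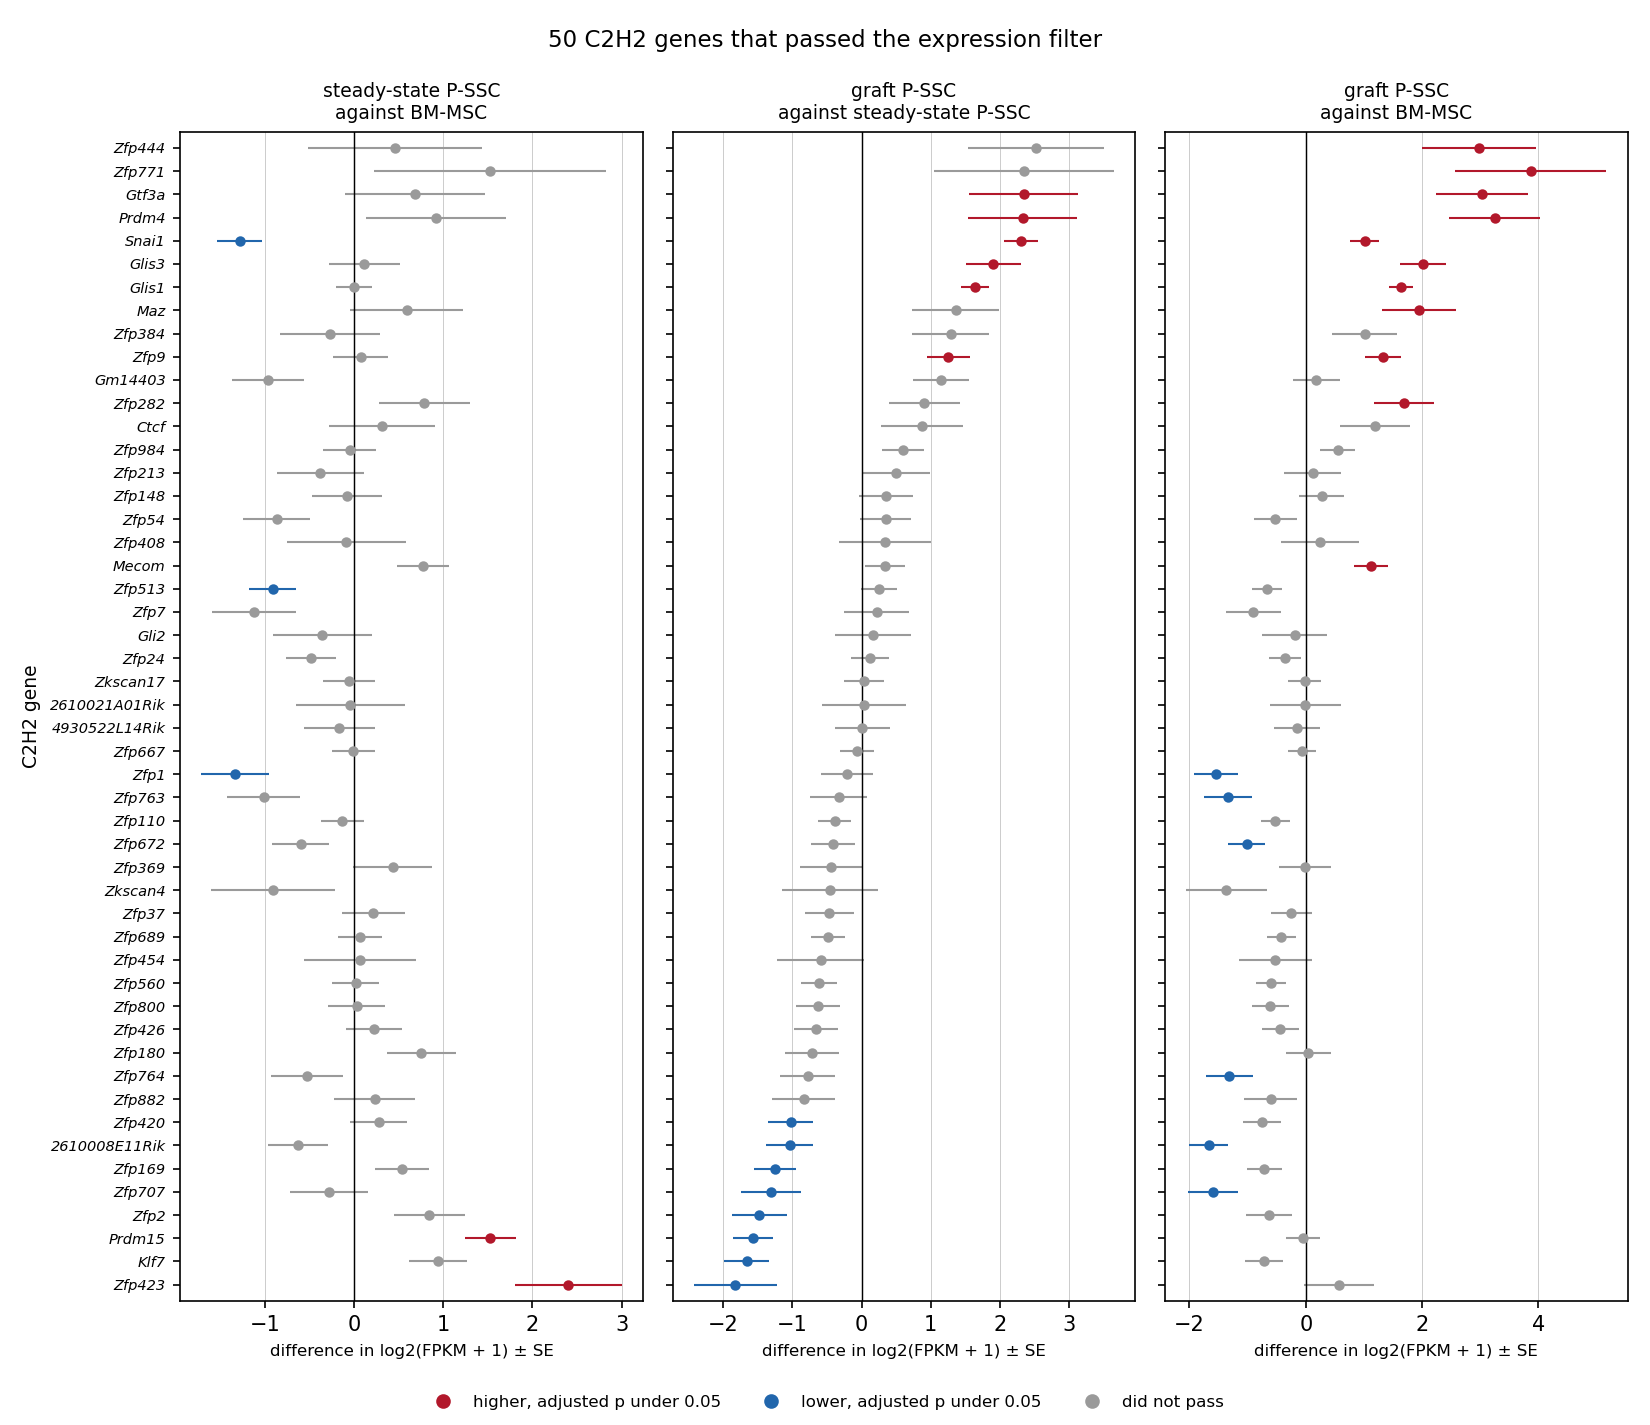
Difference in log2(FPKM + 1) with its SE (x) for the 50 C2H2 genes that passed the expression filter (y, ordered by the graft against steady-state P-SSC difference), in the 3 comparisons. Red and blue points mark 5, 14 and 17 genes with an adjusted p under 0.05 from left to right, and Snai1 is the only gene coloured in all 3 panels.

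A pattern shared by 8 members was a lower level in BM-MSCs and in P-SSC replicates 1 and 2 than in P-SSC replicate 3 and in the grafts. They are Zfp771, Zfp444, Prdm4, Gtf3a, Maz, Ctcf, Zfp384 and Zfp282, and were picked after their values had been seen, for lying lower in those 5 libraries than in grafts. Their differences are therefore a description and no support for the pattern. Several of them are broadly used proteins. Ctcf sets chromatin loops and insulators, Maz binds GC-rich promoter sites, and Gtf3a is the factor that RNA polymerase III needs at the 5S ribosomal RNA genes.

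Zfp771 gave the most extreme values, with 0.715, 0.856 and 0.883 FPKM in BM-MSCs, 0.136, 0.907 and 64.2 in P-SSCs and 46.7, 39.3 and 8.67 in grafts. The 2 low P-SSC libraries held 2 and 12 fragments, and replicate 3 held 909. Zfp444 had 0.175, 0.486 and 25.2 FPKM in P-SSCs and 18.5, 21.0 and 19.2 in grafts. In both genes P-SSC replicate 3 was above every graft library.

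Prdm4 had 0.113, 0.126 and 10.5 FPKM in P-SSCs (5, 5 and 449 fragments) and 14.3, 12.1 and 8.10 in grafts. Gtf3a had 0.576, 1.02 and 18.1 FPKM in P-SSCs and 19.6, 22.1 and 15.8 in grafts. Both passed the test against steady-state P-SSCs with a difference of 2.33 ± 0.79 (adjusted p = 0.0453) and 2.35 ± 0.79 (adjusted p = 0.0441), even though the libraries overlapped, and both calls were lost in 14 of 19 other fits. Without P-SSC replicate 3 the differences were 3.45 and 3.48.

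Of these genes, 6 are among the members called between grafts and BM-MSCs. They are Zfp771 (difference 3.87 ± 1.30, adjusted p = 0.0383), Prdm4 (3.25 ± 0.79, adjusted p = 0.00956), Gtf3a (3.03 ± 0.79, adjusted p = 0.0131), Zfp444 (2.98 ± 0.98, adjusted p = 0.0352), Maz (1.95 ± 0.63, adjusted p = 0.0337) and Zfp282 (1.69 ± 0.51, adjusted p = 0.0255). The calls for Zfp771 and Zfp444 were each lost in 8 of 19 other fits, that for Zfp282 in 7 and that for Maz in 6, in each case also without single BM-MSC or graft libraries. For Ctcf, with 8.22, 4.84 and 6.11 FPKM in BM-MSCs, 3.42, 5.60 and 24.2 in P-SSCs and 21.3, 18.6 and 9.38 in grafts, the adjusted p was 0.135, and for Zfp384 it was 0.169. Both passed without P-SSC replicate 3 (adjusted p = 0.0164 and 0.0241) and in the fit of these 2 groups alone. No P-SSC library enters this comparison, so the differences stayed the same. Without that replicate the SE fell from 0.594 to 0.345 for Ctcf and from 0.559 to 0.322 for Zfp384. The other calls between grafts and BM-MSCs without that replicate likewise rest on unchanged differences. When P-SSC replicate 3 was left out, the number of members called rose to 18 of 50 for grafts against P-SSCs (12 higher and 6 lower) and to 21 for grafts against BM-MSCs (13 higher and 8 lower). Ctcf and Zfp384 were then higher in grafts than in BM-MSCs, Zfp513 (adjusted p = 0.0390) and Zfp7 (adjusted p = 0.0313) were lower, and Zfp560 was lower in grafts than in P-SSCs (adjusted p = 0.0438). The shares of all genes called rose as well, to 45.8% and 53.3%. The differences between grafts and P-SSCs in that fit were 4.17 for Zfp771, 3.96 for Zfp444, 2.11 for Maz, 1.98 for Zfp384, 1.62 for Ctcf and 1.59 for Zfp282, on libraries that defined the pattern.

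**Figure D5:**
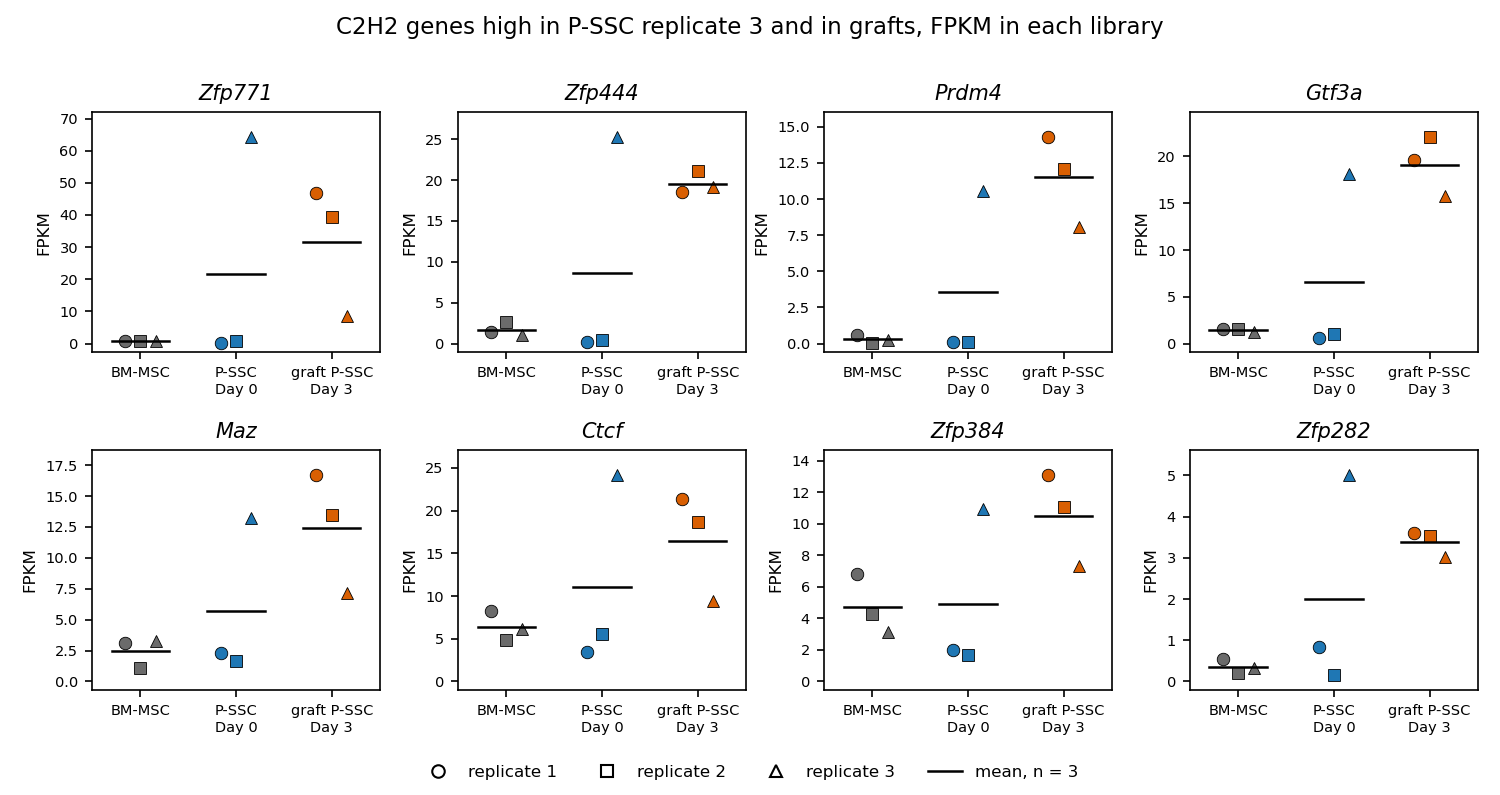
FPKM (y) of the 8 C2H2 genes that were high in P-SSC replicate 3 (blue triangle) and in grafts, in the 3 libraries of each group (x), with a symbol for each replicate and a line at the mean (n = 3). P-SSC replicates 1 and 2 lie far below replicate 3, for example at 0.576 and 1.02 FPKM for Gtf3a, where replicate 3 had 18.1 FPKM and the BM-MSC libraries 1.25 to 1.60 FPKM.

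The GC content of the longest transcripts of these 8 genes ran from 46.4% (Ctcf) to 68.7% (Zfp771), beside a median of 49.9% over all genes tested. Among the 50 members the GC content correlated with the difference between grafts and steady-state P-SSCs (r = 0.41) and between grafts and BM-MSCs (r = 0.45), as a description over genes that share the same libraries. Over the 1947 genes tested with a GC value, the same correlations were −0.03 and 0.02. Without P-SSC replicate 3 the first was 0.46 for the members and 0.01 for all genes. Removing a GC trend from each library, an alternative chosen after the data were seen, gave 14 members called between grafts and P-SSCs, beside 35.0% of all genes. Of these members, 13 had been called before. Zfp423 was lost (adjusted p = 0.0584) and Gm14403 was gained. Between grafts and BM-MSCs the GC correction gave 19, beside 43.6% of all genes, which were the 17 called before with Zfp169 and Zfp513. The part of GC content in the pattern of P-SSC replicate 3 was otherwise not tested.

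The numbered genes and the other members are given side by side. Between grafts and steady-state P-SSCs, the median difference of the 39 numbered genes tested was −0.33, with 17 above and 22 below 0 and 1 called higher and 6 lower, and that of the 11 others was 1.36, with 5 higher and 2 lower, beside 22.6% and 11.5% of all genes. Between grafts and BM-MSCs the medians were −0.42 and 1.19, with 4 numbered genes higher and 6 lower, and 7 of the others higher and none lower, beside 25.7% and 16.2% of all genes. Between P-SSCs and BM-MSCs they were −0.05 and 0.59. Glis1, among the others called higher in both graft comparisons, passed the filter only through its graft values. Gtf3a, Prdm4 and, against BM-MSCs, Maz were called higher as well. With the numbered Zfp771, Zfp444 and Zfp282 they belong to the genes picked after their values had been seen. These counts are therefore a description. Without P-SSC replicate 3 the medians were −0.10 and 1.63 between grafts and P-SSCs, and −0.06 and −0.17 between P-SSCs and BM-MSCs, where that of the other members thus changed sign. The number of fingers goes with this grouping, with a median of 11 in the numbered genes tested and 6 in the others, and is not separate from it. The 27 members with at least 9 fingers had a median difference of −0.47 between grafts and P-SSCs and 0.06 between P-SSCs and BM-MSCs, and the 23 with fewer had 0.34 and −0.06. Without P-SSC replicate 3 the medians were −0.40 and 0.06, and 0.51 and −0.30. A median of all genes at 0.26 stands beside these values, and no test of the groups against each other was made.

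Repression by KRAB and related C2H2 proteins uses partner proteins, of which 13 were listed and only Cbx1, Chd4 and Hdac2 were in the table. Cbx1, which encodes the heterochromatin protein HP1 beta, had 22.8, 20.0 and 26.0 FPKM in BM-MSCs, 11.1, 8.28 and 12.1 in P-SSCs and 14.7, 18.4 and 18.2 in grafts. It was lower in P-SSCs than in BM-MSCs (difference −1.07 ± 0.23, adjusted p = 0.00706, limma) and higher in grafts than in P-SSCs (0.66 ± 0.23, adjusted p = 0.0493). Hdac2 had the pattern of P-SSC replicate 3, with 4.38, 2.82 and 31.6 FPKM in P-SSCs and 61.4, 72.1 and 52.8 in grafts. All graft libraries lay above that replicate, and the BM-MSC libraries had 5.13, 2.92 and 1.80 FPKM. Hdac2 was higher in grafts than in P-SSCs (difference 2.84 ± 0.69, adjusted p = 0.0112, limma) and than in BM-MSCs (3.94 ± 0.69, adjusted p = 0.00165). Chd4 lay at 9.49 to 14.8 FPKM in all 9 libraries.

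In all, 26 of the 50 members tested were called in no comparison. No such share was taken over all genes, so this count describes the members only. Apart from those named above, Zfp180, Zfp148, Zfp24, Zfp560 and Zfp426 had the highest means over all libraries among these 26 members. Zfp180 had 6.75 ± 3.84 FPKM (SD, n = 3) in BM-MSCs, 11.2 ± 2.82 in P-SSCs and 6.34 ± 0.802 in grafts, and Zfp148 had 6.71 ± 3.32, 6.01 ± 2.09 and 7.66 ± 0.533. Zfp24 lay at 5.29 to 7.89 FPKM in the group means, Zfp560 at 4.11 to 6.84 and Zfp426 at 3.89 to 6.75, and the last 2 were called lower in grafts than in P-SSCs in 3 and 2 of 19 other fits. Zfp560 was called lower in grafts than in BM-MSCs in 3 as well.

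Most members that were not tested were near or at 0. Bcl11a, a repressor of fetal globin genes and a factor of B-cell and dendritic cell development, had 27, 131 and 79 fragments in BM-MSCs, none in P-SSCs and 14, 2 and 3 in grafts. Its BM-MSC level was at least 27.0-fold above that of 3 fragments in each P-SSC library. Of the lymphoid markers, Cd79b had 3.34, 3.20 and 7.18 FPKM in BM-MSCs and 0 in all P-SSC libraries. Ighm did not follow Bcl11a, with 9.21, 16.6 and 31.1 FPKM in BM-MSCs, 24.6, 14.4 and 5.71 in P-SSCs and 0.235 to 0.567 in grafts. The part of blood cells in the Bcl11a values was not tested. Zfp711 had 28, 49 and 0 fragments in BM-MSCs and none elsewhere.

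Egr4, an immediate early gene related to Egr1, had no fragment in the 6 steady-state libraries and 19, 71 and 15 fragments in the grafts, or 0.5, 1.55 and 0.389 FPKM. This is at least 11-fold above 3 fragments in each P-SSC library, but Egr4 did not reach the expression filter and was not tested. In all, 7 members were above 0 in graft libraries only (9.72% of the 72 above 0 anywhere, against 10.5% of all genes above 0), 1 in BM-MSC libraries only (1.39% against 5.38%) and 1, Gm6020, in P-SSC libraries only, with 2 fragments (1.39% against 4.29%). Plagl2 lay between 0.154 and 0.932 FPKM throughout, Sp9 had 1 fragment in 1 graft library, and Sall1 was at 0. Of the 26 KLF and SP genes listed, Klf7 and Sp9 were in the table, and of the 5 Ikaros genes none was. The genes missing from it are not thereby shown to be silent.

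Some of the genes at 0 have close copies among the members. Of the 16 members at 0 throughout, 9 lie on chromosome 2, and 5 share over 50% of the 50-base words of their coding sequence with another member. With Gm14419 and Gm6710, which were above 0 in some libraries, 7 members did so, all on chromosome 2. Gm11007 and Gm14308 share 100% of them. Reads from such copies can map to several places, so their values are uncertain and a 0 does not show that the copies are silent. Gm14403, which shares 26.0%, was measured at 2.26, 0.630 and 1.24 FPKM in P-SSCs and 3.42, 4.2 and 4.67 in grafts, and did not pass (adjusted p = 0.0522), but was called in 6 of 19 other fits.

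The promoters of Snai1 and Zfp423 are printed because these genes changed in opposite directions in both comparisons that involve steady-state P-SSCs. They run from 250 bases before to 50 after the start of the gene in RefSeq on GRCm38.p6, at chr2:167537945-167538244 on the plus strand and chr8:87959546-87959845 on the minus strand, and are written along the gene. Capitals mark every match, on either strand, of the GC box GGGCGG, the E-box CAGGTG that Snail proteins bind, the MAZ motif GGGAGGG and the GLI motif GACCACCCA.
Snai1 promoter: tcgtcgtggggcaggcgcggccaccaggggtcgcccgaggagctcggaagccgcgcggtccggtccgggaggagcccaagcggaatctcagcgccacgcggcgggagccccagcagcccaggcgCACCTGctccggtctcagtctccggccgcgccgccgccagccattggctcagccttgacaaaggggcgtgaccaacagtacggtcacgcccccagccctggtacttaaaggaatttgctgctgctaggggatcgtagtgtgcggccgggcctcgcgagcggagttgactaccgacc
Zfp423 promoter: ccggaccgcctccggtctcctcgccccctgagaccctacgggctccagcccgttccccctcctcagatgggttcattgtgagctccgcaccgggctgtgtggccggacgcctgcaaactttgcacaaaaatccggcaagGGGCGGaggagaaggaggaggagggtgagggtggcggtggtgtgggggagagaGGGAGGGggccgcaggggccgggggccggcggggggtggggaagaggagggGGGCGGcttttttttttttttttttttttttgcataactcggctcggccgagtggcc
The Snai1 window held 1 E-box match, and the Zfp423 window held 2 GC boxes and 1 MAZ match. Of the 88 members, 72 had a promoter in the RefSeq table. The GC box was found in 44.4% of these and in 35.9% of all 27025 promoters of the same length, the E-box in 11.1% and 20.0%, the MAZ motif in 25.0% and 21.3%, and the GLI motif in none and in 0.2%. A match describes the letters in the window only.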

How the data were processed

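The members and gene lists were chosen with earlier results of these data known. Per the labels and the submitters' processing notes, the authors sequenced poly-A RNA of sorted cells, mapped reads to GRCm38 with STAR 2.6.1d, counted with featureCounts 1.5.0-p3 and deposited FPKM, fragments scaled by gene length and library total. The annotation release and strand setting are not given in the sources used here, so overlapping genes cannot be told apart.

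From these values, log2(FPKM + 1) was compared with limma 3.58.1 (R 4.3.3) by linear models with a mean-variance trend, fitted jointly to all 9 libraries. The 1948 genes that reached 1 FPKM in 3 or more libraries entered. Calls were made at a Benjamini-Hochberg adjusted p under 0.05 over all 1948 genes. Differences are on this scale and understate changes of low genes. Adjusted p-values are from limma throughout.

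Whole fragments were recovered for all 2838 genes above 0 in at least 3 libraries (relative tolerance 1e-06), using the mean transcript length of GENCODE M21. That length matched for 93.99% of the genes tested. Gene coordinates in the file were those of GENCODE M21 for all 88 members. Intervals and floors of 3 fragments cover counting error only. The recovery of library totals and lengths was tested on simulated data, as was the main limma fit for grafts against steady-state P-SSCs. The other steps were not.

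The genes named were, in each comparison, up to 12 largest increases and 12 largest decreases among members called, the 8 members of highest mean, and members of the developmental families. Others are said to have been picked after their values were seen, or are given as examples of low and uncertain members. Replicate numbers were taken from the titles, and the alternatives tried are given in the closing section.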

Additional observations from a re-analysis of the deposited data

How the results depend on the processing

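Of the 36 calls of members, 14 held in every other fit (19 in all, or 18 for Glis1 and Mecom, which a filter on the mean removed), and none changed direction. Fitting only the libraries of the groups compared gave 2 members called instead of 5 between P-SSCs and BM-MSCs, 13 instead of 14 between grafts and P-SSCs, and 24 instead of 17 between grafts and BM-MSCs, the highest count of these fits, beside 16.6%, 33.1% and 54.8% of all genes. Leaving out 1 library at a time gave 3 to 9 members between P-SSCs and BM-MSCs, 5 to 18 between grafts and P-SSCs, and 9 to 21 between grafts and BM-MSCs, beside 20.5 to 30.4%, 23.1 to 45.8% and 28.5 to 53.3% of all genes. The lowest counts came without BM-MSC replicate 1, P-SSC replicate 1 or graft replicate 3 (3 each), without graft replicate 2 (5), and without graft replicate 1 or 2 (9 each), and the highest of each range came without P-SSC replicate 3. The difference between P-SSCs and BM-MSCs in the number of members detected at 1 FPKM was −1.0 genes. It reversed to 1.67 at 2 FPKM, and with 1 library left out it ranged from −4.17 to 2.33. Between grafts and BM-MSCs it was −1.0 and reversed to 1.33 at 0.5 FPKM and to 7.67 above 0, and with 1 library left out it ranged from −2.83 to 1.17. With 3 libraries against 3 no exact permutation test can pass 0.05, and the difference of 7.67 reached the smallest p of 0.1.

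Between grafts and P-SSCs the difference in members detected at 1 FPKM was 0, with 2.33 at 0.5 FPKM, −1.67 at 2 FPKM and −3.33 to 3.17 with 1 library left out.

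A replicate block gave 5, 10 and 15 members called (22.6%, 31.9% and 38.8% of all genes), and a count-based fit on the recovered fragments (limma voom, chosen after the data were seen) 7, 13 and 16 (23.3%, 34.3% and 41.2%). Libraries with the same number did not deviate together in every pair (r from −0.434 to 0.132), so the numbers were not taken as pairs. The levels of members under 1 FPKM rest on few fragments, and a 0 there means that the gene was not detected at this depth.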

Other observations

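Graft P-SSC libraries were more alike than the steady-state libraries. The range between the 3 libraries of a group, in log2(FPKM + 1), had a median over the 50 members of 0.29 in grafts, 0.93 in BM-MSCs and 0.90 in P-SSCs, and over all genes tested it was 0.26, 0.69 and 0.89. It was above 1 for 4 members in grafts, 22 in BM-MSCs and 23 in P-SSCs. The widest ranges in BM-MSCs were those of Zkscan4, with 7.85, 2.83 and 0.0561 FPKM, and of Zfp408, with 7.31, 1.96 and 0 FPKM. 2610021A01Rik had 5.48, 4.33 and 0 FPKM in BM-MSCs, 2.22, 2.58 and 1.73 in P-SSCs and 1.81, 2.45 and 2.5 in grafts. These genes, chosen after their values were seen, did not pass the test in any comparison. Without BM-MSC replicate 3, Zkscan4 and 2610021A01Rik were called lower in grafts than in BM-MSCs, and Zkscan4 was called under quantile normalization as well.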
